A study of Mus musculus with 8 samples.

Results

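Ribosomal protein genes were followed in RNA-seq of primary murine cardiac fibroblasts, the matrix-producing cells of the heart, in which the cytosolic family was set against the mitochondrial one. A gene belonged to the cytosolic family if its symbol was Rpl or Rps followed by a digit, or was Rplp0, Rplp1, Rplp2 or Rpsa, and to the mitochondrial family if it was Mrpl or Mrps followed by a digit. S6 kinases and pseudogene names were left out. This gave 165 of the 22274 genes in the table, 87 cytosolic (52 of the large and 35 of the small subunit) and 78 mitochondrial (49 and 29). The 8 libraries fell into 4 labelled GFP and 4 labelled OEIRF7. According to the paper, the control cultures received an empty adenovirus (Ad-EV) and the others an adenovirus with FLAG-tagged IRF7 (Ad-FLAG-IRF7). Each of the 8 cultures received TGF-β at 5 ng/ml over 24 h before harvest. Strain, age and the number of animals behind each culture were not given in the sources used here, so p-values measure the spread between these libraries, which may be technical. Total counts ran from 24454801 to 28658826 per library.

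The targeted gene was examined first. Mouse Irf7 had 2861, 3680, 2272 and 3291 counts in the libraries labelled GFP and 385, 421, 380 and 404 in those labelled OEIRF7, a log2 fold change of -2.96 (SE 0.12, adjusted p = 7.7e-11). It was thus lower under the label of overexpression. The adenovirus listed in the study's reagents is named for the human gene, whereas the deposited description names an adeno-associated virus, so the counts of mouse Irf7 alone do not settle the labels. All directions below run from the libraries labelled GFP to the libraries labelled OEIRF7, in which mouse Irf7 was lower.

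A ribosome is built from a large and a small subunit, each an RNA scaffold clad in proteins. Cytosolic ribosomes translate nuclear messages, and their proteins are made in near-equal amounts, assembled in the nucleolus and exported. Mitochondrial ribosomes translate the few messages of the mitochondrial genome, all for the respiratory chain and ATP synthase, yet their proteins are nuclear-encoded, made in the cytosol and imported. In the heart, growing fibroblasts that lay down matrix depend on the first kind, while the second sets how much respiratory chain a cell can renew. Messages of cytosolic ribosomal proteins are known to begin with a C and a run of pyrimidines (C or T), through which mTOR signalling controls their translation. Messages of mitochondrial ribosomal proteins are not known for this feature.

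The start sites of 9 members are given as examples. They include members with the highest or lowest fold changes as well as Rps6 and Rps27, which were not called. Each sequence holds 15 bases before the start annotated by RefSeq on GRCm38.p6 and 15 from it on, 5′ to 3′ on the gene's own strand, and capitals mark the nearest run of at least 5 pyrimidines. No run of that length was found in the window of Rpl7l1.
Rps6 (chr4:86857353-86857382, minus strand): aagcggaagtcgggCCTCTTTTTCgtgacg
Rps27 (chr3:90213634-90213663, minus strand): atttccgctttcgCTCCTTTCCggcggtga
Rpl35 (chr2:39005117-39005146, minus strand): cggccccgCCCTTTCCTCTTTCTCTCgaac
Rpl22l1 (chr3:28805493-28805522, plus strand): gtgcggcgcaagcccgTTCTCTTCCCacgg
Rpl6 (chr5:121204486-121204515, plus strand): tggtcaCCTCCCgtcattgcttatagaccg
Rpl7l1 (chr17:46782642-46782671, minus strand): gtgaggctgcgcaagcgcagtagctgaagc
Mrps18b (chr17:35916426-35916455, minus strand): cattgcggggcgtgTCCTTggcccacccta
Mrpl45 (chr11:97315701-97315730, plus strand): gtgcccgcgcgCCCCTCCCCTggagagcgt
Mrps15 (chr4:126046913-126046942, plus strand): atccggaaccgatccattcgctcagCCCTC
In Rps6, Rps27 and Rpl35 the run covers the annotated start, which is a C. It also covers the start in Mrps18b, where it is a C, and in Mrpl45, where it is a T. The printed windows alone therefore do not set the families apart. The RefSeq start lay 493 bases from the GENCODE start of the gene for Rpl35, 72 bases from it for Rpl22l1, 51 for Mrps18b and 45 for Rps6, and at most 20 bases from it for the other members printed, so the window may miss the start that these cells used.

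Across the members tested, 62 cytosolic and 69 mitochondrial genes had a RefSeq window of 250 bases before to 50 after the start, as did 10667 of all genes tested. A C at the start followed by 4 pyrimidines was found in 12 cytosolic genes (19.4%), in 0 mitochondrial genes and in 2.31% of all windows. A run of at least 8 pyrimidines within 20 bases of the start was present in 45.2% of the cytosolic, 17.4% of the mitochondrial and 15.5% of all windows. Searched on both strands, the core bound by ETS factors such as GABPA (CCGGAAG) was in 38.7% of the cytosolic and 36.2% of the mitochondrial windows, against 17.7% of all, and the YY1 core (AAGATGG) was in 14.5% and 18.8%, against 7.16%. The NRF1 core (GCATGCG) was in 8.06% and 11.6%, against 6.4%. The TATA box (TATAAA) was in 9.68% and 5.8%, against 7.53%, the MYC E-box (CACGTG) in 8.06% and 7.25%, against 9.97%, and the GC box (GGGCGG) in 62.9% and 47.8%, against 64.5%. The interferon-stimulated response element, the motif of IRF factors, was in 0 windows of either family and in 0.966% of all. These are matches of letters in a fixed window, not sites of binding.

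Markers of fibroblasts were all detected (9 of 9), with summed levels of 3331 to 3371 FPKM in the libraries labelled GFP and 3308 to 3529 in those labelled OEIRF7. FPKM is the deposited level, set per transcript length and per sequencing depth. Of 6 cardiomyocyte markers, Myh6, Myh7, Actc1 and Ryr2 were under 0.1 FPKM. The 6 summed to 8.8 to 12.2 FPKM in the libraries labelled GFP and 6.70 to 9.13 in those labelled OEIRF7, nearly all of it Tnnt2, which was lower in the latter (log2 fold change -0.54, adjusted p = 0.00057), without overlap of the groups in its scaled counts. The 4 myofibroblast markers summed to 2455 to 2682 FPKM in the libraries labelled GFP and 1213 to 1320 in those labelled OEIRF7, and Acta2 (-1.83, adjusted p = 1.2e-12), Tagln (-0.98, adjusted p = 7.6e-12) and Postn (-0.38, adjusted p = 2.8e-07) were each lower. The sums of the 5 macrophage and leukocyte markers (40.8 to 46.6 against 49.7 to 59.1 FPKM) and of the 5 mural markers (4.12 to 4.76 against 9.41 to 11.1 FPKM) did not overlap between the groups either, while those of the 5 endothelial markers (44.7 to 46.5 against 44.3 to 48.4 FPKM) and of the 4 epicardial markers (20.4 to 23.5 against 20.3 to 26.1 FPKM) did. Single genes of the latter lists nevertheless differed without overlap, with Kdr (0.79, adjusted p = 2e-05) and Vwf (0.49, adjusted p = 6.3e-05) higher, and among the epicardial markers Krt19 higher (1.96, adjusted p = 3.7e-07) and Upk3b lower (-1.32, adjusted p = 2.8e-08). The myofibroblast, macrophage and mural sums and these genes thus moved with the groups that are compared below, and their part in the results was not tested. In bulk RNA, a change in the share of a cell type and a change of RNA per cell cannot be told apart.

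GFP library 2 stood apart in the cytosolic family. Of the 82 tested cytosolic members, 75 were above the mean of the libraries labelled GFP in this library, by a median of 0.12 on the log2 CPM scale (CPM, counts scaled to the size of the library), while 2 were above it in GFP library 1 and 8 in GFP library 4. Its median deviation was 0.23 for the 27 members with the shortest transcripts and 0.060 for the 27 with the longest. In the libraries labelled OEIRF7, the median deviations of the family from its own group lay between -0.026 and 0.043. The mitochondrial family deviated less, by at most 0.049 in GFP library 2 and by at most 0.011 in either direction among the libraries labelled OEIRF7. The families' counts and medians are therefore given with and without it below.

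**Figure D1:**
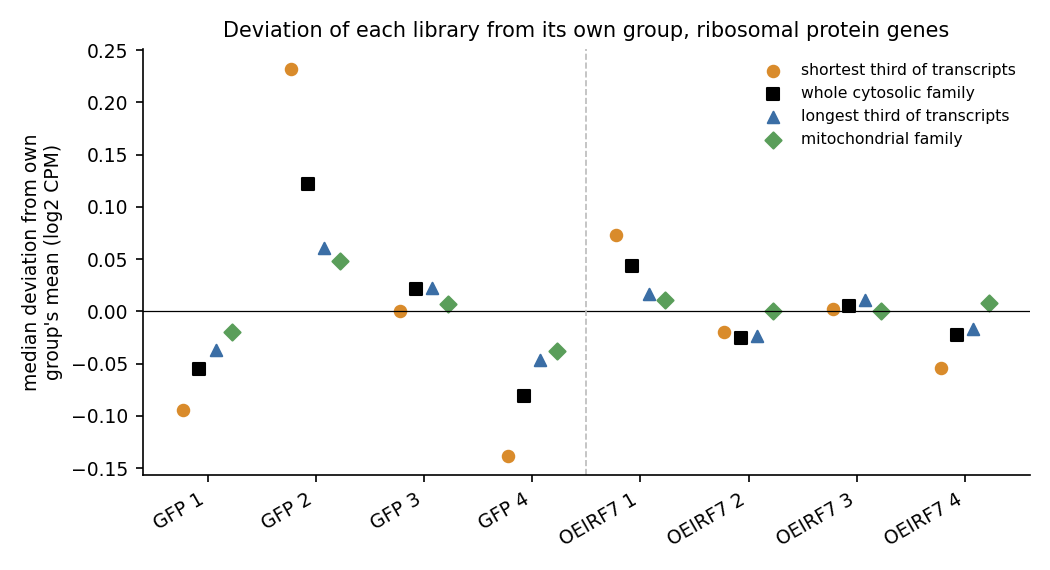
Median deviation (log2 CPM) of the tested members from the mean of their own group, for each of the 8 libraries on the x axis, with the cytosolic family as black squares, its 27 shortest and 27 longest transcripts as orange circles and blue triangles, and the mitochondrial family as green diamonds. GFP library 2 has the highest points of all, 0.12 for the cytosolic family and 0.23 for its shortest transcripts.

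The families were then compared between the groups to ask whether either moved as a whole. The cytosolic family was divided and close to level, while most mitochondrial members that were called were higher in the libraries labelled OEIRF7. Of the 82 cytosolic genes with enough counts to be tested, 10 were higher and 14 lower at an adjusted p under 0.05, and 58 were not called. Of the 78 mitochondrial genes, all tested, 34 were higher and 5 lower, and 39 were not called. Across all 13533 genes tested, 58.9% were called, 29% higher and 29.9% lower. The share called was 29.3% of the cytosolic family, split into 12.2% higher and 17.1% lower, and 50% of the mitochondrial family, split into 43.6% and 6.41%. No test of a family against other genes was made.

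The log2 fold changes were small in both families. The cytosolic median was -0.019, with the middle of the family between -0.082 and 0.055 (quartiles) and extremes of -0.49 and 0.33. The mitochondrial median was 0.14, with quartiles of -0.044 and 0.23 and extremes of -0.45 and 0.54, and 55 of the 78 members were above 0. The quartiles over all genes were -0.26 and 0.24, around a median of 0.0015. At an unadjusted p under 0.05, 28 of 82 cytosolic and 44 of 78 mitochondrial members differed in edgeR, as did 8513 of all 13533 genes tested. At that p, 0 of either family passed a 1.5-fold change (0.585 on the log2 scale), against 19.3% of all genes. DESeq2 also gave 0, and limma on log2(FPKM + 0.1) gave 1, Mrps18b. The 95% interval of the log2 fold change lay wholly within 1.5-fold either way for 81 of 82 cytosolic and 73 of 78 mitochondrial members, against 62.8% of all genes.

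All 4 libraries of one group lay above all 4 of the other for 16 cytosolic members (4 higher, 12 lower) and for 35 mitochondrial members (28 higher, 7 lower). This was the case for 53.8% of all genes, 26.8% higher and 27% lower. Without GFP library 2 the counts were 14 higher and 13 lower for the cytosolic and 38 and 9 for the mitochondrial family, against 57.9% of all genes. By adjusted p, members of both subunits were called. In the cytosolic family, 7 of 49 large-subunit genes were higher and 7 lower, as were 3 and 7 of 33 small-subunit genes. In the mitochondrial family, 24 of 49 large-subunit genes were higher and 2 lower, as were 10 and 3 of 29 small-subunit genes. The median log2 fold changes of its large and small subunits were 0.15 and 0.12.

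Genes of neither family within the same range of CPM were called in larger shares. Among those with a mean CPM within the cytosolic range, 67.4% of 8114 were called, and within the mitochondrial range 63.6% of 6943 were. Levels were not matched within these ranges. The median was 50.3 CPM against 260 CPM in the cytosolic family, and 29.5 against 22.4 CPM in the mitochondrial family. Per length, the cytosolic members had a median of 346 FPKM (15.2 to 1076) and the mitochondrial members 18.6 FPKM (1.95 to 109).

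Without GFP library 2, 21 cytosolic members were higher and 12 lower, with a median of 0.024, and 37 mitochondrial members were higher and 5 lower, with a median of 0.16. Of all genes in that fit, 56.8% were called, 3871 higher and 3895 lower, around a median of 0.009. With library-size scaling alone the cytosolic counts became 16 higher and 10 lower, with a median of 0.0085. The mitochondrial counts were then 38 and 4, and the median was 0.16. This scaling moved all genes in the same direction, from 3924 higher and 4045 lower to 4346 higher and 3728 lower and from a median of 0.0015 to 0.0288, and the cytosolic median was below that of all genes under either scaling.

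**Figure D2:**
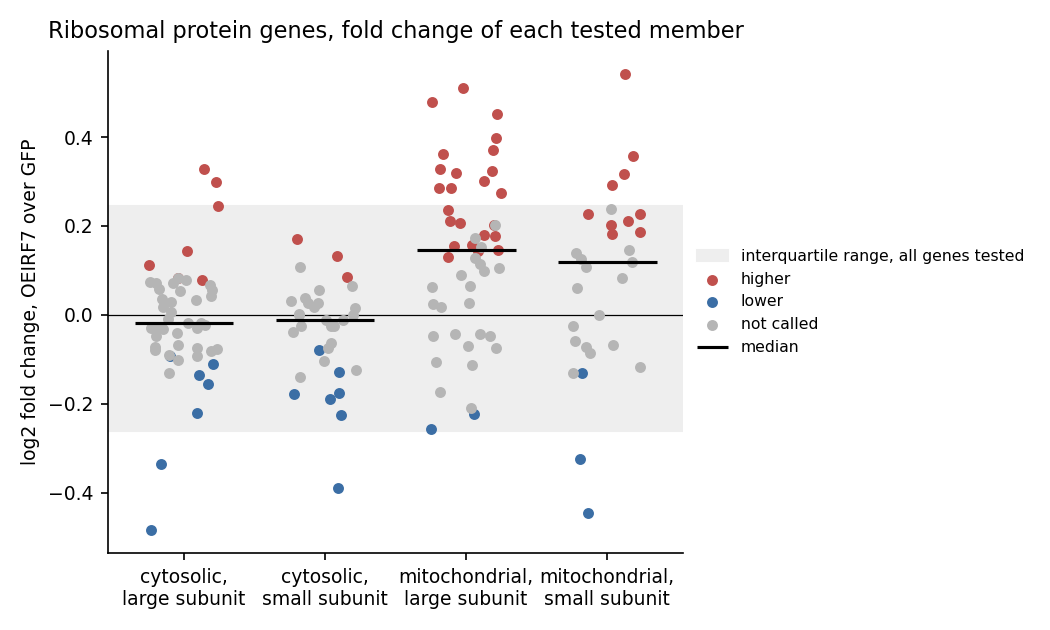
Log2 fold change, OEIRF7 over GFP, of each of the 160 tested ribosomal protein genes, by family and subunit, coloured red (higher) or blue (lower) where the adjusted p was under 0.05 and grey otherwise, with the median of each set as a black line and the interquartile range of all genes tested as a grey band. Both cytosolic medians sit close to 0 and both mitochondrial medians above 0.1, and most points stay inside the band.

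The same counts were also summed over each family and given as shares of all counts, which is library-size scaling alone. That scaling raised the median log2 fold change of all genes too, from 0.0015 to 0.0288. The cytosolic family took 2.41, 2.66, 2.53 and 2.38% of all counts in GFP libraries 1 to 4 and 2.56, 2.45, 2.48 and 2.48% in the libraries labelled OEIRF7. The means were 2.50% ± 0.129 and 2.49% ± 0.0444 (SD, n = 4), a ratio of 0.999, and the groups overlapped. The mitochondrial family took 0.174, 0.182, 0.178 and 0.1704% against 0.197, 0.194, 0.195 and 0.194%. All 4 libraries labelled OEIRF7 were above all 4 labelled GFP, with a ratio of the means of 1.11. For each mitochondrial count there were 13.8 to 14.6 cytosolic counts in the libraries labelled GFP and 12.7 to 13.0 in those labelled OEIRF7. These shares mix members of different length, and no p-value was computed for them. As shares of summed FPKM, the ratios of OEIRF7 to GFP were 0.990 for the cytosolic and 1.09 for the mitochondrial family.

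**Figure D3:**
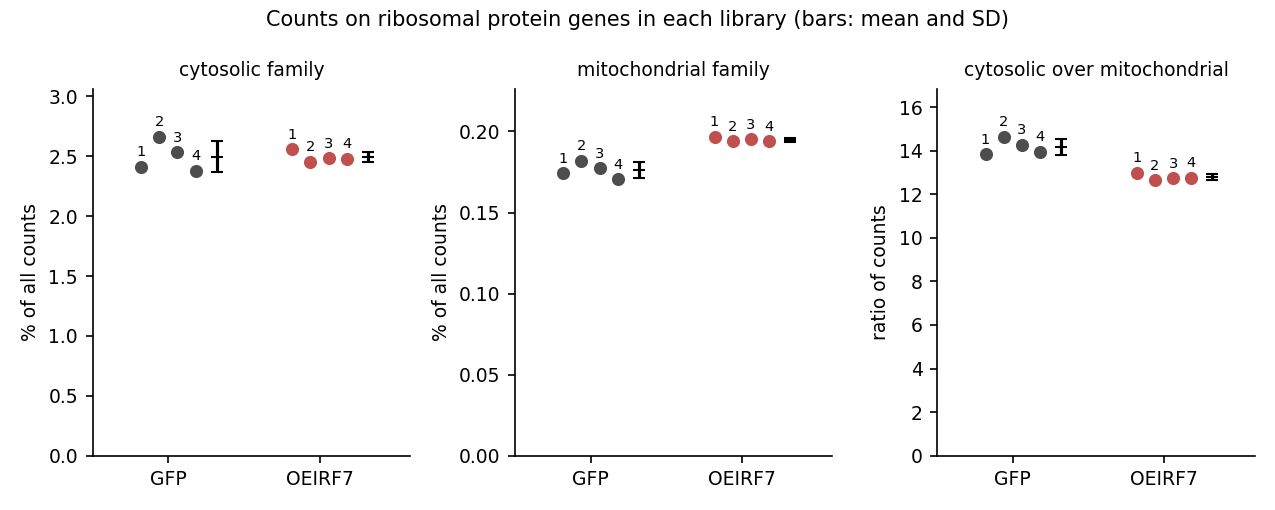
Share of all counts (%) on the cytosolic family (left) and the mitochondrial family (middle), and the ratio of their counts (right), in each library, numbered by replicate, with the mean and SD of each group (n = 4) beside the points. The cytosolic shares overlap around 2.5%, while the mitochondrial shares labelled OEIRF7, from 0.194 to 0.197%, lie above all of those labelled GFP.

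The most abundant cytosolic members per length were Rps2 (1076 FPKM over all libraries), Rplp0 (972 FPKM), Rps24 (923 FPKM) and Rpl13a (869 FPKM). Rps2, a small-subunit protein near the entry of the message channel, had 1102, 1075, 1118 and 1136 CPM in the libraries labelled GFP and 1029, 1031, 1036 and 1099 CPM in those labelled OEIRF7. OEIRF7 library 4 lay within the GFP range, and the log2 fold change was -0.079 (SE 0.030, adjusted p = 0.036), a call lost under 10 of the 18 alternatives, among them leaving out GFP library 1, 3 or 4 or OEIRF7 library 1, 2 or 3 (adjusted p 0.055 to 0.10). Rplp0, the base of the acidic stalk that receives elongation factors, had 1342, 1382, 1399 and 1348 CPM against 1269, 1235, 1277 and 1285 CPM. Its groups did not overlap, with a log2 fold change of -0.11 (SE 0.026, adjusted p = 0.0020). The stalk proteins that Rplp0 carries, Rplp1 and Rplp2, had log2 fold changes of -0.13 (95% interval -0.27 to 0.0030, adjusted p = 0.086) and -0.091 (-0.23 to 0.042, adjusted p = 0.22), and neither was called, although Rplp1 was without GFP library 1 or 4 and with the replicate number as a block (adjusted p 0.032 to 0.043). Rps24 (-0.074, adjusted p = 0.17), Rpl13a (-0.080, adjusted p just above the threshold of 0.05) and Rpsa, a small-subunit protein also known as the laminin receptor precursor (-0.026, adjusted p = 0.45), were not called either. Rpl13a was called lower under 6 of the 18 alternatives, among them leaving out GFP library 4 or OEIRF7 library 1 or 3 (adjusted p 0.022 to 0.046). Rps6, the substrate of S6 kinase, differed by 0.017 with a 95% interval from -0.046 to 0.079.

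The 14 cytosolic members that were lower included Rps12, Rps16, Rpl35, Rpl3 and the paralog Rpl22l1. Rps12 (ENSMUSG00000061983, minus strand of chr10:23785183-23787275), a small-subunit protein whose introns hold small nucleolar RNAs, had 391, 453, 418 and 379 CPM in the libraries labelled GFP and 329, 309, 305 and 310.4 CPM in those labelled OEIRF7. The groups were well separated, with means of 410.4 ± 33.0 and 313 ± 10.6 CPM (SD, n = 4) and a log2 fold change of -0.39 (SE 0.049, adjusted p = 7.7e-06; p = 0.0286 in an exact permutation test over libraries, two-sided, which is its minimum with 4 in each group). Rpl3, which reaches into the peptidyl transferase centre, had 427, 455, 435 and 432 CPM against 375, 370.4, 367 and 389 CPM, a log2 fold change of -0.22 (SE 0.032, adjusted p = 3.1e-05), and its groups did not overlap.

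Rpl35, at the exit of the peptide tunnel, had 203, 260.1, 215 and 191 CPM against 184, 167, 171 and 167 CPM, with GFP library 2 the highest. Its log2 fold change was -0.34 (SE 0.073, adjusted p = 0.0011), and -0.24 without that library (adjusted p = 0.00047), but exons of Arpc5l and Wdr38 overlap it on the opposite strand and the strand setting of the counting was not given, so its counts are uncertain. Rps16 was 180.5, 227, 185 and 172 CPM against 169.7, 167, 172 and 161 CPM. Its groups touched within 1 CPM without overlapping (log2 fold change -0.19, SE 0.066, adjusted p = 0.023), and GFP library 2 was again the highest, without which the log2 fold change was -0.099 (adjusted p = 0.036). The call on Rps16 was lost in limma on the FPKM values and without OEIRF7 library 4 (adjusted p 0.062 to 0.099). Other members that were lower were Rpl4, Rpl10a, Rplp0 and Rpl12 of the large and Rps15a, Rps20, Rps19 and Rps2 of the small subunit, with log2 fold changes from -0.18 to -0.079, of which the calls on Rpl12, Rps20 and Rps19 were each lost under 5 to 7 of the 18 alternatives.

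Of the 10 cytosolic members that were higher, Rpl7l1, Rpl36al and Rpl6 had the highest fold changes. Rpl7l1 (ENSMUSG00000063888, minus strand of chr17:46773907-46782672), a paralog of Rpl7, had 72.6, 77.6, 82.6 and 78.7 CPM against 93.7, 96.1, 102 and 99.3 CPM, a log2 fold change of 0.33 (SE 0.044, adjusted p = 1.4e-05). Rpl6, a large-subunit protein of high level, had 500.4, 513, 546 and 491 CPM against 614, 584, 623 and 608 CPM, a log2 fold change of 0.25 (SE 0.036, adjusted p = 3.7e-05). In both genes all 4 libraries labelled OEIRF7 lay above all 4 labelled GFP (exact two-sided permutation test, p = 0.0286). Rpl18 (0.14, adjusted p = 0.0097) and Rps25 (0.13, adjusted p = 0.024) were higher with overlapping groups, and both are crossed by exons on the opposite strand, of Sphk2 and of Ccdc84 and Trappc4. The call on Rps25 was lost without GFP library 1, GFP library 4 or OEIRF7 library 1 (adjusted p 0.078 to 0.094). Rps19bp1, which matches the naming rule but encodes a protein that binds Rps19 and is no part of the ribosome, had 11.9, 12.9, 11.1 and 11.98 CPM against 13.1, 13.6, 13.7 and 13.5 CPM (log2 fold change 0.17, SE 0.068, adjusted p = 0.045). Its call was lost under 10 of the 18 alternatives, among them leaving out any library but GFP library 2 (adjusted p 0.056 to 0.12). Rpl5 and Rpl11, which bind Mdm2 together with ribosomal RNA, and Rps3 were higher with log2 fold changes from 0.078 to 0.11 and overlapping groups, and these calls were lost under 7, 4 and 8 of the 18 alternatives (adjusted p up to 0.26), among them leaving out GFP library 1 or 4 or OEIRF7 library 1.

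**Figure D4:**
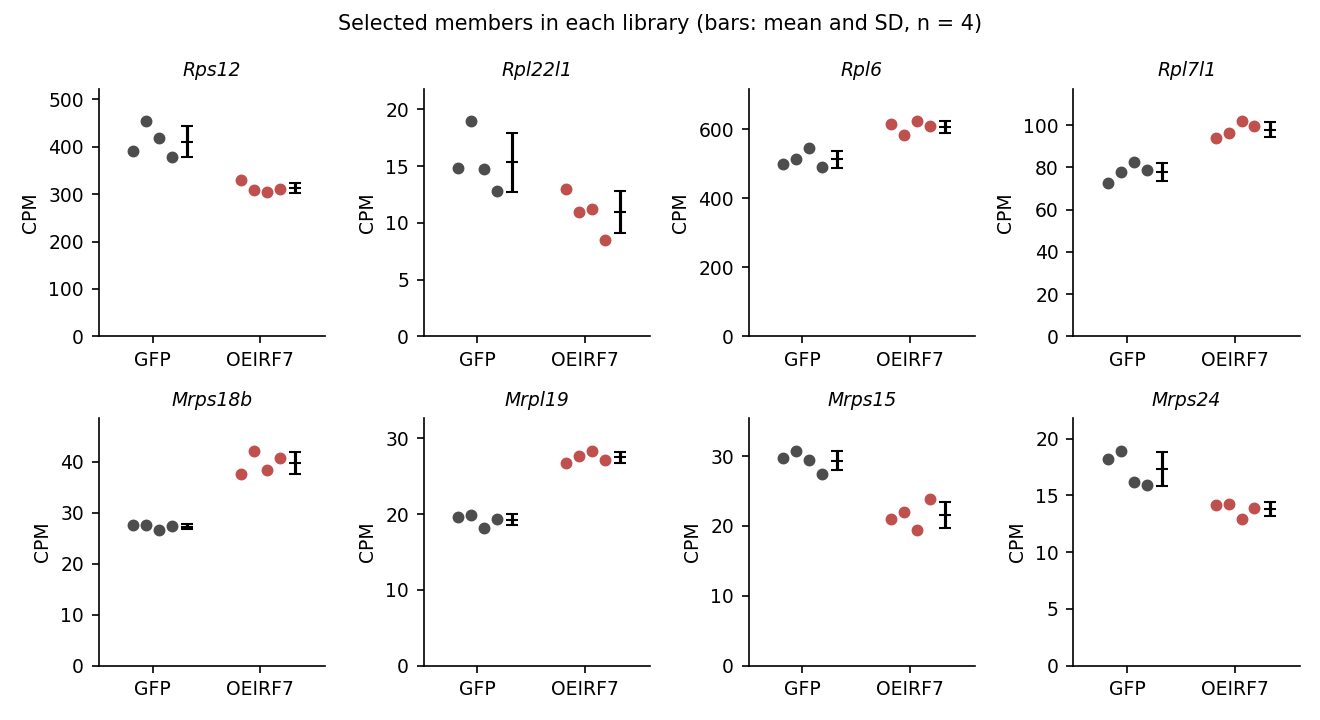
CPM of 8 members in each library (y axes from 0), labelled GFP in grey and OEIRF7 in red, with the mean and SD of each group (n = 4) as bars; the upper row is cytosolic and the lower row mitochondrial. The groups are apart in each panel except Rpl22l1, where the highest OEIRF7 library (13.0 CPM) is just above the lowest GFP library (12.8 CPM).

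Several cytosolic proteins have a paralog, and the members of such pairs did not always have the same call. Rpl22 had 88.3, 111, 91.0 and 90.8 CPM in the libraries labelled GFP and 92.1, 94.2, 90.5 and 83.0 CPM in those labelled OEIRF7 (log2 fold change -0.082, adjusted p = 0.29). Rpl22l1, whose message Rpl22 is known to repress, had 14.9, 18.9, 14.7 and 12.8 CPM against 13.0, 10.995, 11.2 and 8.52 CPM. Its log2 fold change was -0.49 (SE 0.13, adjusted p = 0.0043), although 1 library labelled OEIRF7 lay above the lowest labelled GFP (exact two-sided permutation test, p = 0.0571) and Gm33051 overlaps the gene on the opposite strand. Rpl36al had 62.3, 70.2, 69.6 and 65.6 CPM against 91.4, 82.5, 78.1 and 77.3 CPM (log2 fold change 0.30, SE 0.055, adjusted p = 0.0003), while its paralog Rpl36a differed by -0.10 (95% interval -0.28 to 0.073, adjusted p = 0.30). Rpl7, the paralog of Rpl7l1, differed by -0.019 (-0.092 to 0.053, adjusted p = 0.64). The differences between paralogs were not tested.

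Rps27 (-0.12, adjusted p = 0.26) and the paralog Rps27l, a target of p53 (-0.0009, 95% interval -0.12 to 0.12), were not called, nor were Rpl39 (-0.031, -0.30 to 0.24), Rpl10 (0.084, adjusted p = 0.079), Rpl26 (0.058), Rps4x (-0.026) and Rpl21 (-0.033). Without GFP library 4, Rps27 was called lower (-0.21, adjusted p = 0.039). Rpl10 was called higher with library-size scaling, without GFP library 2 and with pseudogene counts added (adjusted p 0.026 to 0.047), and Rpl26 with library-size scaling (adjusted p = 0.041) and at the edge of the threshold in limma on log2(FPKM + 0.1). The direction of Rps27l, Rpl7, Rpl39, Rpl21, Rps4x and Rpsa turned under at least 1 other scaling, filter or left-out library. The 5 cytosolic members with too few counts to be tested were Rpl10l, the testis paralog of Rpl10, Rpl3l, the paralog of Rpl3 in muscle, Rpl39l, and the retrogenes Rps23rg1 and Rps27rt. Rpl39l had 8, 10, 8 and 10 counts in the libraries labelled GFP and 15, 22, 8 and 9 in those labelled OEIRF7. Rpl3l had 1, 0, 0 and 5 counts against 0, 0, 0 and 1. The other 3 had 0 to 7 counts per library. Rpl26l1 and Rps4l were not analysed here.

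Of the 34 mitochondrial members that were higher, 24 belonged to the large subunit. Mrpl19 (minus strand of chr6:81957851-81965958) had 19.6, 19.9, 18.2 and 19.4 CPM in the libraries labelled GFP and 26.8, 27.7, 28.4 and 27.1 CPM in those labelled OEIRF7. The spread within each group was small, at means of 19.3 ± 0.728 and 27.5 ± 0.710 CPM (SD, n = 4), and the log2 fold change was 0.51 (SE 0.053, adjusted p = 1e-06), but Gcfc2 overlaps its exons on the opposite strand. Mrpl35 had 16.9, 19.8, 16.1 and 16.4 CPM against 24.2, 26.2, 23.9 and 21.98 CPM (0.48, SE 0.075, adjusted p = 6.8e-05). Mrpl40 had 12.8, 14.1, 13.2 and 13.0 CPM against 20.8, 18.7, 17.2 and 16.0 CPM (0.45, SE 0.081, adjusted p = 0.00021). Neither gene overlaps an exon of the opposite strand.

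Mrpl45, which anchors the ribosome to the inner membrane where its products are inserted, had 30.7, 31.2, 32.4 and 28.3 CPM against 41.1, 36.9, 42.8 and 40.7 CPM, a log2 fold change of 0.40 (SE 0.057, adjusted p = 3e-05). Mrpl30 had 30.9, 36.5, 34.4 and 31.2 CPM against 41.9, 41.2, 44.0 and 44.8 CPM (0.37, SE 0.057, adjusted p = 5.6e-05). Mrpl12, the stalk protein of the mitochondrial ribosome, which has also been described as a partner of the mitochondrial RNA polymerase, was higher by 0.20 (SE 0.048, adjusted p = 0.0021). Mrpl58, which frees peptides from stalled ribosomes as a peptidyl-tRNA hydrolase, was higher by 0.29 (SE 0.071, adjusted p = 0.0028). In each of these 4 genes the groups did not overlap, and Gm16755 and Ict1os overlap the exons of Mrpl12 and Mrpl58 on the opposite strand.

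In the small subunit, Mrps18b had the highest fold change of either family. It lies on the minus strand of chr17:35910379-35916389 and had 27.6, 27.5, 26.6 and 27.3 CPM in the libraries labelled GFP and 37.6, 42.2, 38.4 and 40.6 CPM in those labelled OEIRF7. All 4 libraries labelled OEIRF7 were higher, with means of 27.3 ± 0.472 and 39.7 ± 2.08 CPM (SD, n = 4) and a log2 fold change of 0.54 (SE 0.050, adjusted p = 2.8e-07; exact two-sided permutation test, p = 0.0286). Gm16279 overlaps its exons on the opposite strand. Mrps18b is 1 of 3 mouse proteins related to the same bacterial ribosomal protein, with Mrps18a and Mrps18c. Mrps18a had 18.4, 17.3, 18.3 and 18.1 CPM against 25.2, 22.4, 22.3 and 22.5 CPM (0.36, SE 0.060, adjusted p = 0.00012). Mrps18c, with 9.70, 15.3, 12.6 and 11.3 CPM against 14.7, 15.7, 14.6 and 12.4 CPM, differed by 0.24 with overlapping groups (95% interval -0.013 to 0.49, adjusted p = 0.095), and was called without GFP library 2 (0.36, adjusted p = 0.0074), without OEIRF7 library 4 (0.30, adjusted p = 0.049) and with the replicate number as a block (0.24, adjusted p = 0.029). Mrps36, since assigned to the alpha-ketoglutarate dehydrogenase complex instead of the ribosome, was among the higher members by its name (0.32, adjusted p = 0.00052).

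The 5 mitochondrial members that were lower were Mrps15, Mrps24, Mrpl24, Mrpl27 and Mrps2, and in each of them the groups did not overlap. Mrps15 (plus strand of chr4:126046925-126055532) had 29.7, 30.8, 29.4 and 27.5 CPM in the libraries labelled GFP and 21.01, 21.99, 19.4 and 23.8 CPM in those labelled OEIRF7. Its log2 fold change was -0.45 (SE 0.065, adjusted p = 3.5e-05), close in size to those of the highest members but in the opposite direction. Mrps24 had 18.2, 18.9, 16.2 and 15.9 CPM against 14.2, 14.2, 13.0 and 13.9 CPM (-0.32, SE 0.073, adjusted p = 0.0014) and shares exons with Urgcp on the same strand. Mrpl24 (-0.26, adjusted p = 0.0023) is overlapped by Rrnad1 and Mrpl27 (-0.22, adjusted p = 0.0099) by Eme1 on the opposite strand. Mrps2 was lower by 0.13 on the log2 scale (adjusted p = 0.022), with 35.9, 37.1, 36.9 and 37.3 CPM against 33.4, 32.4, 35.4 and 33.2 CPM, and its call was lost without OEIRF7 library 2, with library-size scaling and in limma (adjusted p 0.051 to 0.061).

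Per length, the most abundant mitochondrial member was Mrps6 at 109 FPKM, followed by Mrpl17, Mrps21 and Mrpl20. Mrps6 shares exons with the inositol transporter gene Slc5a3 on the same strand, so part of its level may belong to that gene. It had 104, 80.2, 109.5 and 83.1 CPM in the libraries labelled GFP and 91.1, 75.5, 109 and 84.2 CPM in those labelled OEIRF7, with a spread within groups wider than the difference (-0.067, 95% interval -0.30 to 0.17). Mrpl17 had 47.4, 49.8, 51.5 and 53.0 CPM against 62.0, 62.4, 61.6 and 59.9 CPM, a log2 fold change of 0.29 (SE 0.042, adjusted p = 3.5e-05) without overlap. Mrpl20 was also higher (0.21, adjusted p = 0.011), with GFP library 2 inside the range of the libraries labelled OEIRF7. Mrps21 was not called (0.14, adjusted p = 0.079), but was without GFP library 2 (0.19, adjusted p = 0.019) and with library-size scaling (adjusted p = 0.042).

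Members with overlapping neighbours were found on both sides. Exons on the opposite strand crossed 19 of the 82 tested cytosolic and 28 of the 78 mitochondrial members, among them 13 of the 34 mitochondrial members that were higher and 2 of the 5 that were lower. Within 1000 bases, 10 cytosolic and 20 mitochondrial members had a divergent neighbour. The median annotated transcript was 756 bases long in the cytosolic and 1253 bases in the mitochondrial family, with a median of 5 exons in both. In the cytosolic family the windows of the 14 lower members held a C start with 4 pyrimidines in 2 of 11, those of the 10 higher members in 0 of 9 and those of the uncalled members in 10 of 42. The ETS core was in 11 of 31 windows of the mitochondrial members that were higher, in 1 of 5 of those that were lower and in 13 of 33 of the others.

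Ribosomal proteins whose symbols fall outside the naming rule were examined alongside. Of the cytosolic ones, Fau and Rack1 were not called (log2 fold changes 0.081 and 0.060, adjusted p = 0.16 and 0.096). Of 5 mitochondrial ones, Chchd1 was higher (0.35, SE 0.090, adjusted p = 0.0034) and Aurkaip1 lower (-0.25, SE 0.044, adjusted p = 0.00022), and Dap3, Ptcd3 and Gadd45gip1 were not called.

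Most genes that build cytosolic ribosomes were higher in the libraries labelled OEIRF7. Of 53 ribosome biogenesis genes, 44 were higher and 1 lower (84.9% called, against 58.9% of all genes, of which 29% were higher and 29.9% lower), with a median log2 fold change of 0.30. Utp4, a component of the small-subunit processome, was at 41.7 CPM in the libraries labelled GFP and 75.1 CPM in those labelled OEIRF7 (0.85, SE 0.052, adjusted p = 4.3e-09). Nhp2, of the particles that pseudouridylate ribosomal RNA, went from 20.4 to 34.7 CPM (0.77, SE 0.070, adjusted p = 2.4e-07), and Noc4l, a small-subunit assembly factor, from 14.7 to 24.5 CPM (0.74, SE 0.066, adjusted p = 2.2e-07). Utp20 was the 1 lower member (-0.17, SE 0.040, adjusted p = 0.0016), a call lost in limma on the FPKM values (adjusted p = 0.11). The abundant nucleolar proteins Ncl and Npm1 differed by 0.0022 (adjusted p = 0.97) and 0.12 (adjusted p = 0.016). Whether this list differs from the ribosomal protein families was not tested.

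Of 36 cytosolic translation factors, 19 were higher and 5 lower (66.7% called, against 58.9% of all genes), with a median of 0.087. Eif6, which keeps the subunits apart until the large one is mature, rose from 42.4 to 75.4 CPM (0.83, SE 0.047, adjusted p = 1.8e-09), and the release factor Etf1 (0.58, adjusted p = 4.9e-09) and the helicase Eif4a1 (0.53, adjusted p = 2.9e-09) were higher as well. The paralog Eif4a2 had the lowest fold change, from 242 to 127 CPM (-0.93, SE 0.039, adjusted p = 1e-10), followed by Eif3a (-0.40, adjusted p = 1.9e-07) and Eif4b (-0.24, adjusted p = 8.3e-06). Of 19 tested cytosolic aminoacyl-tRNA synthetases (of 20 listed), 7 were higher and 3 lower (52.6% called, against 58.9% of all genes), with a median of 0.035. Rars (0.38), Kars (0.34) and Wars (0.26) were the highest and Vars (-0.26), Lars (-0.16) and Iars (-0.099) the lowest, of which Iars lost its call with library-size scaling, in limma and without GFP library 3 or OEIRF7 library 1 or 2 (adjusted p 0.052 to 0.075).

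Of 34 mitochondrial translation factors and ribosome assembly genes, 7 were higher (20.6%) and 10 lower (29.4%), against 29% and 29.9% of all genes, with a median of -0.0087. The ribosomal RNA methyltransferase Mrm3 (0.59, SE 0.097, adjusted p = 0.0001), the release factor Mtrf1l (0.51, adjusted p = 0.0029) and Mterf4, which brings an RNA methyltransferase to the large subunit (0.40, adjusted p = 0.00071), were highest. Tfb2m, a transcription factor of the mitochondrial genome (-0.73, SE 0.078, adjusted p = 1.4e-06), the elongation factor Guf1 (-0.39, adjusted p = 0.00014) and Rmnd1 (-0.34, adjusted p = 0.0027) were lowest. The call on Rmnd1 was lost in limma on the FPKM values (adjusted p 0.32 to 0.33). Of 17 mitochondrial aminoacyl-tRNA synthetases, 4 were higher and 6 lower (58.8% called, against 58.9% of all genes), and 12 of the 17 were below 0, with a median of -0.20. Nars2 (0.53), Fars2 (0.50) and Wars2 (0.28) were the highest called members, and Sars2 (-0.62), Vars2 (-0.37) and Rars2 (-0.27) the lowest. The call on Wars2 was lost in limma and without GFP library 2 or OEIRF7 library 2, 3 or 4 (adjusted p 0.052 to 0.27), and that on Rars2 with library-size scaling and without GFP library 1 or 3 or OEIRF7 library 1 or 3 (adjusted p 0.052 to 0.086).

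Of 25 regulators of ribosome synthesis, 9 were higher (36%) and 7 lower (28%), against 29% and 29.9% of all genes, with a median of 0.029. Myc, which drives ribosome biogenesis, was at 24.7 CPM in the libraries labelled GFP and 43.7 CPM in those labelled OEIRF7 (0.82, SE 0.067, adjusted p = 8.9e-08), while its partner Max was lower (-0.17, adjusted p = 0.0058, and 0.079 in limma on the FPKM values). Mdm2 (0.40, adjusted p = 1e-06) and Trp53 (0.39, adjusted p = 1.4e-06), whose proteins take part in the response to disturbed ribosome assembly, were both higher in RNA. That response was not tested. The translational repressor Eif4ebp2, held in check by mTOR, went from 121 to 70.4 CPM (-0.78, SE 0.037, adjusted p = 2.6e-10). Gabpb1, the partner of the ETS factor whose core is common in both families' windows, was lower by 0.16 on the log2 scale (adjusted p = 0.020), a call lost in limma on the FPKM values (adjusted p = 0.58) and without GFP library 1, GFP library 4 or OEIRF7 library 1 (adjusted p 0.053 to 0.059). Its partner Gabpa was level (0.0015, adjusted p = 0.98).

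**Figure D5:**
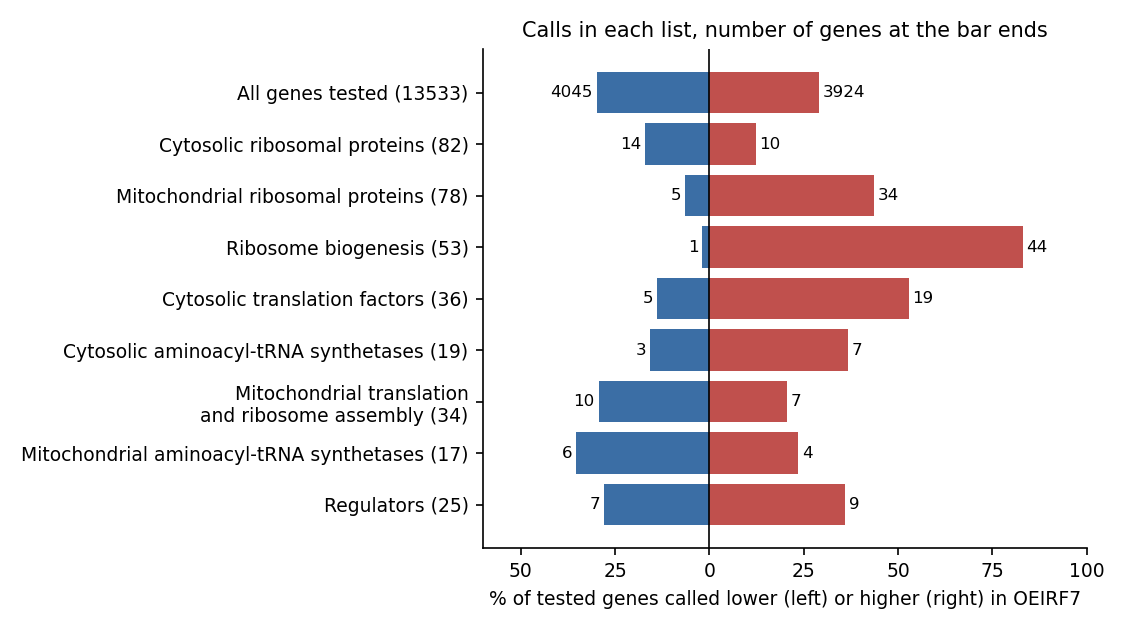
Percent of tested genes called lower (left, blue) or higher (right, red) in the libraries labelled OEIRF7, for all genes tested, both ribosomal protein families and 6 related lists, with the number of genes at the bar ends and the number tested in brackets. The mitochondrial family (34 higher, 5 lower) and ribosome biogenesis (44 higher, 1 lower) lean to the right, while the cytosolic family has the shortest bars together.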

How the data were processed

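RNA-seq of 8 cultures of murine cardiac fibroblasts was analysed, 4 per group. According to the methods, the authors trimmed the reads with Trimmomatic, mapped them with HISAT2 to GRCm38 and deposited raw counts per gene from HTSeq-count. FPKM values computed by Cufflinks, corrected for length and depth, were deposited beside them. Tool versions, the strand setting and the treatment of reads mapping to several places were not given in the sources used here, which bears on ribosomal protein genes: 300 pseudogenes named for the families are annotated, 4 of them are listed in the table, and 7 rows with pseudogene symbols were added to their parent genes in 1 alternative. The labels and the methods differ on the library kit. Columns of the authors' own group means, fold changes, p-values and FDR were not used.

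The main test was that of edgeR 4.0.16 (R 4.3.3) on the counts: filterByExpr (13533 genes kept), TMM scaling (factors 0.989 to 1.01), glmQLFit and glmQLFTest without covariates, and Benjamini-Hochberg adjustment over all tested genes, with an adjusted p under 0.05 called. SE is the absolute log2 fold change over the root of F. Exact two-sided permutation tests used log2 CPM with a prior count of 2. Symbols of 121 genes, altered in the table, were restored by identifier, coordinates and overlaps came from GENCODE M21, and start windows from RefSeq (136 of 165 members matched). No 2 libraries of a group agreed within sampling noise (chi-square per degree of freedom 2.91 to 9.94). The fit was tested on simulated data.

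The 18 alternatives were DESeq2 1.42.0, library-size scaling, upper-quartile scaling, scaling without the ribosomal protein genes, a minimum of 1 count in total or of 10 in each library, the replicate number as a block, pseudogene counts added, limma 3.58.1 on log2(FPKM + 1) and log2(FPKM + 0.1) of genes with a mean of at least 0.1, and leaving out each library. Members and lists were chosen with earlier results of these data known. Named genes are, per family, the 6 highest and 6 lowest called members above 5 CPM, the 4 of highest FPKM, the stalk proteins, Rpsa, Rps6, Rpl13a, Rpl21 and paralog pairs, Mrpl12 and Mrpl58, and the 3 highest and 3 lowest called genes above 5 CPM of each list. Other names complete a count or, like Ncl, Npm1, Gabpa and Mrps36, were chosen after their values were seen. Single values of a few genes are not reported here.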

Additional observations from a re-analysis of the deposited data

Results flagged for a closer look

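Within groups of 4 libraries, 102 groups of values (the families' shares and the named members) were checked for a library far from the other 3 by Dixon's criterion, which chance meets in about 1 in 20 groups, and 5 met it. GFP library 2 was high for Rpl22, at 111 CPM against 88.3 to 91.0 CPM in the other 3 libraries labelled GFP, and for Mrpl24, at 27.8 CPM against 24.7 to 25.2 CPM. OEIRF7 library 1 was high for Mrps18a, at 25.2 CPM against 22.3 to 22.5 CPM in the other 3 libraries labelled OEIRF7, and for Rps27, at 95.2 CPM against 83.2 to 84.8 CPM. OEIRF7 library 4 was high for Rps2, at 1099 CPM against 1029 to 1036 CPM.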

How the results depend on the processing

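The mitochondrial family kept its lean towards the libraries labelled OEIRF7 under all 18 alternatives, with 25 to 38 members higher and 4 to 7 lower, and its median log2 fold change ran from 0.1223 to 0.1564 without 1 library and reached 0.1625 with library-size scaling. The cytosolic family had no such balance. Its higher members numbered 4 to 21 without 1 library (4 without GFP library 1, GFP library 4 or OEIRF7 library 1, 6 without OEIRF7 library 3, 21 without GFP library 2), 16 with library-size scaling and 6 with a minimum of 1 count in total. Its lower members numbered 11 to 18 without 1 library and 9 in both limma fits. Its median ran from -0.0436 to 0.0237 without 1 library, the positive value without GFP library 2, and was 0.0085 with library-size scaling and 0.015 in limma. With library-size scaling the median of all genes was higher too, at 0.0288 against 0.0015 in the main fit. In limma it was 0.0266 and 0.0366 with pseudocounts of 1 and 0.1. Under library-size scaling and in limma the cytosolic median stayed below that of all genes. Without GFP library 2 the median of all genes was 0.009, and the cytosolic median lay above it. Of the members called, 4 of 10 higher and 9 of 14 lower cytosolic and 24 of 34 higher and 4 of 5 lower mitochondrial ones were called in the same direction under every alternative. Of 1530 recomputed fold changes of 85 named genes, 1421 stayed on the same side of the threshold with the same sign, 58 lost a call, 20 gained one and 31 changed sign, all 31 of genes not called. Without 1 library, the log2 fold change ran from -0.0428 to 0.0572 for Rps27l, -0.1242 to 0.1427 for Rpl39, -0.0423 to 0.0043 for Rpl7, -0.0627 to 0.0151 for Rpl21, -0.1729 to 0.0129 for Mrps6 and -0.0002 to 0.0298 for Rps6. With library-size scaling it turned positive for Rps27l (0.026), Rpl7 (0.0076), Rpsa (0.0014) and Rps4x (0.0012), and in limma with either pseudocount for Rps27l (0.03 and 0.0302), Rpl39 (0.0149 and 0.0152), Rpl7 (0.0126 and 0.0127), Rpl21 (0.0082), Rpsa (0.0131) and Rps4x (0.0017). For Rps27l it was also positive with at least 10 counts in every library (0.0049), in DESeq2 and with the block (0.0017). With library-size scaling and in limma these values were below the median of all genes, except Rps27l in limma with a pseudocount of 1. The causes were not tested. Deviations of libraries with the same replicate number correlated weakly (0.0792, 0.0953, 0.138 and 0.104 for numbers 1 to 4). Each value was higher than with any other number, where the highest was 0.0476. Whether the numbers mark pairs cannot be told from this. With the replicate number as a block, 9 cytosolic members were higher and 17 lower, and 35 mitochondrial members higher and 6 lower. That fit called 60.7% of all genes, 4057 higher and 4154 lower, against 58.9% in the main fit. The 5 untested cytosolic members had at most 22 counts in any library.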
